A study of Mus musculus with 12 samples.

Results

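Sγ1, the switch (S) region that precedes the exons of IgG1, received 5308 of the 22284 junctions in the 6 CSR-HTGTS-seq libraries of splenic B cells stimulated with αCD40/IL4. In all, 12 libraries of the series hold 53012 junctions. Members were all junctions on chromosome 12 from 114556001 to 114585000, a 29-kb region in the coordinates of the AJ851868/mm9 hybrid genome. WT replicates 1, 2 and 3 gave 1113, 1214 and 1084 Sγ1 junctions, while 3′IgH CBEs-deleted cells gave 675, 778 and 444. The B cells were mature splenic B cells of chimeric mice whose lymphocytes all come from TC1 embryonic stem cells of 129/SV origin. They were either WT or homozygous for a deletion of the CTCF-binding elements at the 3′ end of the IgH locus (3′IgH CBEs), and both genotypes were cultured for 96 h with αCD40, an antibody that imitates T-cell help, and the cytokine IL4. The sources used here give neither the age of the mice nor the number of stem cell clones, so p-values measure the spread between libraries. The lists hold only a minor part of the Sγ1 junctions that the study counted for the same libraries. Levels and shares below are those of the lists. By the study's counts, the junctions missing from the IgH locus lay almost all in Sγ1 in every library, while Sε was almost complete. Shares of all IgH junctions, and comparisons of Sγ1 with Sε or Sμ, thus set a reduced Sγ1 list against fuller ones. Whether the missing junctions differed in position, orientation or joints was not tested.

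Class switch recombination (CSR) exchanges the constant region of an antibody by joining a break in Sμ to a break in a downstream S region. The enzyme AID starts both breaks by deaminating cytosines in transcribed, repetitive S regions, and AGCT is among the motifs it prefers. In a deletional junction the upstream end at Sμ is joined to the downstream end at the acceptor, which deletes the DNA between them and gives a functional switch. In an inversional junction the segment between both breaks is turned around. Joints of CSR are made mainly by classical end joining, as direct joints, over a few shared bases (microhomology) or with inserted bases. CSR-HTGTS-seq reads these junctions from a primer in 5′Sμ (the bait) into the joined sequence (the prey).

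The hybrid sequence under the Sγ1 preys was read from the matched bases of the preys themselves, which covered 18192 bases of the region and agreed at 99.9999% of 698521 bases. A core of 7.492 kb (chr12:114569498-114576989) was bounded by the outermost 100-base windows that occurred more than once. Equal windows most often lay 2594 bases apart. Over most of its length the core was a tandem repeat of 49 bases. A base equalled the base 49 positions on in 82.1% of cases over the core, but in 58.6% from 114570001 to 114571000, near its downstream end. The most frequent 49-base unit of the core occurred 22 times. It is shown, in the direction of transcription (the minus strand), because it holds the AGCT motif, in capitals.
Sγ1 repeat unit: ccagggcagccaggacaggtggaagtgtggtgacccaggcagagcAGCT
Positions inside the core are open to exchange between copies. For each junction, the 100 bases from it on in prey direction were taken from the recovered sequence, also where the prey was shorter. They occurred once in that sequence for only 776 of 2532 core junctions (30.6%). The sequences on either side are unique on this measure by the way the core was bounded. Their counts, 1201 of 1201 junctions downstream and 1541 of 1541 upstream, therefore do not test it. Sγ1 was therefore described in 3 parts. The upstream flank, on the Sμ side, lay above 114576989, the core followed, and the downstream flank, on the IgG1 exon side, lay below 114569498. Distances are given from the upstream boundary of the region, so that the core ran from 8.011 to 15.503 kb and a larger distance is nearer to the IgG1 exons.

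Junctions of 3′IgH CBEs-deleted cells lay nearer to the Sμ side of Sγ1 than junctions of WT cells. Of the junctions in the flanks, the upstream flank held 47.3%, 46.5% and 50.1% in WT replicates 1, 2 and 3. It held 69.8%, 69.1% and 70.9% in the 3′IgH CBEs-deleted replicates. The lowest deleted library was thus well above the highest WT library. The group means were 48.0% ± 1.88 and 69.9% ± 0.905 (SD, n = 3), a difference of 21.98 percentage points (p = 0.1 by two-sided exact permutation over libraries, the lowest value that 3 against 3 can reach). Pooled, 849 of 1772 WT and 699 of 1002 deleted flank junctions lay upstream (Fisher's exact test on junctions, which are not replicates, so that it covers counting error only, p = 2.77e-29, adjusted p = 3.87e-28 over 14 such tests).

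The core itself held a like share in both genotypes. It took 47.4%, 49.01% and 47.7% of the Sγ1 junctions in WT and 49.04%, 44.6% and 48.9% in deleted libraries, and these values overlapped (p = 0.9, exact permutation test). The downstream flank held 27.8%, 27.3% and 26.1% in WT against 15.4%, 17.1% and 14.9% in deleted libraries. The deleted mean of 15.8% ± 1.16 was 58.4% of the WT mean of 27.0% ± 0.850 (SD, n = 3). The upstream flank held 24.9%, 23.7% and 26.2% in WT against 35.6%, 38.3% and 36.3% in deleted libraries, or 147.2% of WT on the means. Neither flank overlapped between the genotypes. Against all junctions of the 300-kb IgH window (114400001 to 114700000), the downstream flank was 8.54% ± 0.410 in WT and 5.41% ± 0.267 in deleted libraries, and the upstream flank 7.87% ± 0.311 and 12.6% ± 0.299 (SD, n = 3), again without overlap. The window is not a like base in both genotypes, since by the study's counts Sε held a smaller share of IgH junctions in deleted cells. Shares of the window therefore also depend on Sε.

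**Figure D1:**
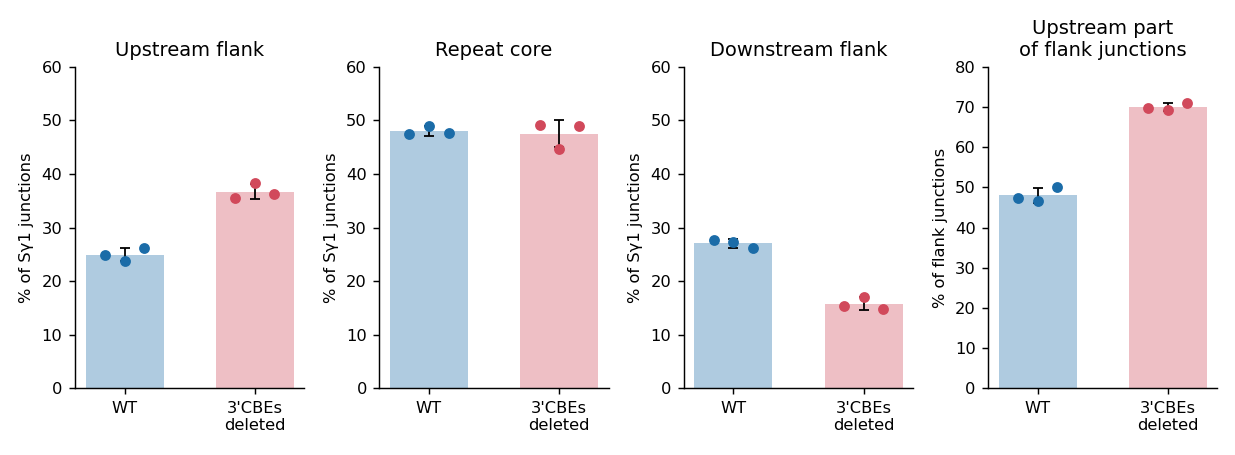
Share of Sγ1 junctions in the upstream flank, the repeat core and the downstream flank, in percent of the Sγ1 junctions of a library, and, at the right, the upstream flank in percent of the flank junctions. Points are libraries, bars their means and lines the SD (n = 3), and the genotypes overlap only in the core.

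The median junction lay 12.3, 12.1 and 11.4 kb from the upstream boundary in WT and 9.26, 8.98 and 8.85 kb in deleted libraries. The means were 11.9 ± 0.496 and 9.03 ± 0.209 kb (SD, n = 3), so the median was 2.89 kb nearer to Sμ in deleted cells (exact permutation test, p = 0.1). The span from the 10th to the 90th percentile differed little, at 9.88 ± 0.105 kb in WT and 9.67 ± 0.0866 kb in deleted libraries, although these did not overlap either. Sε, the other S region used under this stimulation, had its median 0.222 kb nearer to its upstream boundary in deleted libraries, without overlap. In Sμ the medians overlapped, at 6.66 kb ± 0.128 in WT and 6.66 ± 0.161 in deleted libraries. The difference between the genotypes was 2.67 kb larger in Sγ1 than in Sε, and its libraries did not overlap (exact permutation test, p = 0.1). The region taken for Sε, 114505001 to 114521000, is shorter than that of Sγ1, and distances were not scaled to length.

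In bins of 1 kb, 14 bins held at least 20 junctions and 9 of them (64.3%) did not overlap between the genotypes. Of the bins of Sμ and Sε, 4 of 13 (30.8%) did not, 1 of them lower (7.69%) and 3 higher (23.1%) in deleted libraries. The 5 Sγ1 bins that were lower in deleted libraries (35.7%) ran side by side from 14 to 19 kb, and the 4 that were higher (28.6%) ran side by side from 5 to 9 kb. The 5 bins between them, all within the core, overlapped. The core also held the bin at 14 to 15 kb (deleted minus WT -1.01 percentage points) and almost all of that at 8 to 9 kb (3.80). Its like share in both genotypes thus covers opposite differences near its ends. With preys of at least 100 bases, 5 of 14 bins did not overlap and these runs were broken. The bins at 18 to 19, 17 to 18, 14 to 15 and 6 to 7 kb then overlapped (at 17 to 18 kb the difference, deleted minus WT, was -1.49 percentage points against -3.02), 5 to 6 kb turned sign (-0.0625), and 13 to 14 kb came apart (-3.32). The bin with the most junctions, 845, was that from 7 to 8 kb in the upstream flank, with 12.8%, 13.4% and 14.0% of the Sγ1 junctions in WT and 20.6%, 19.8% and 21.2% in deleted libraries. The largest difference in the downstream flank was at 16 to 17 kb, where WT libraries held 13.1%, 14.8% and 13.7% and deleted libraries 8.74%, 8.87% and 7.43%. The next 2 bins held 638 junctions each, 1 at 6 to 7 kb, among the higher ones, and 1 at 13 to 14 kb in the core. The latter held 12.9% ± 0.978 in WT and 10.8% ± 1.94 in deleted libraries (SD, n = 3), and these overlapped.

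**Figure D2:**
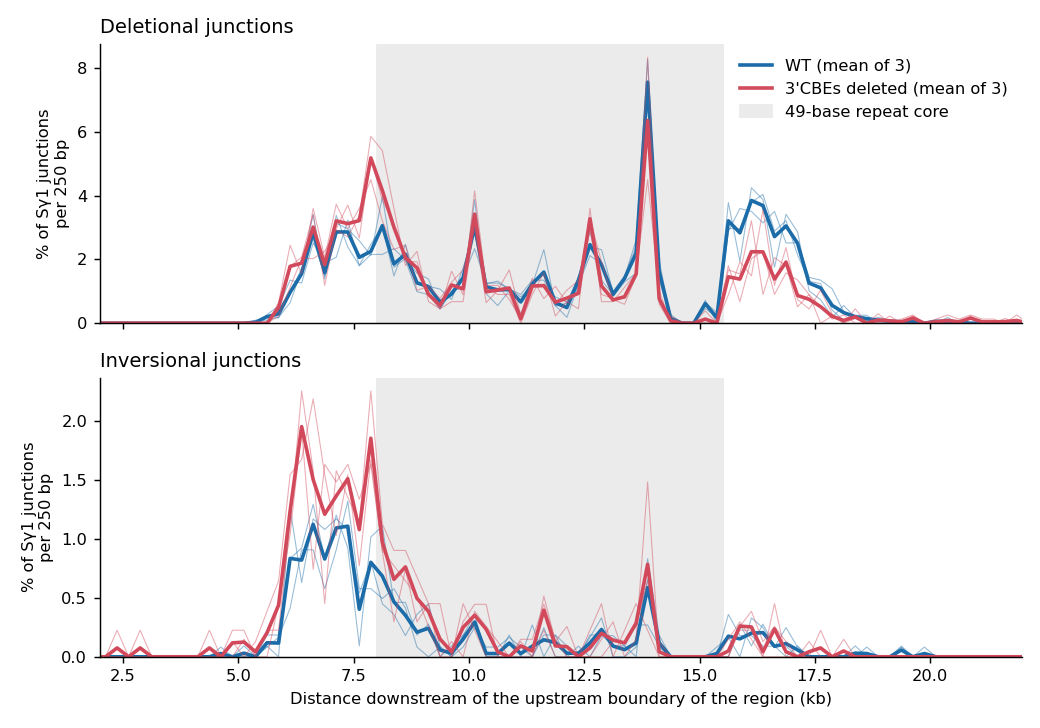
Deletional (top) and inversional (bottom) junctions along Sγ1, in percent of the Sγ1 junctions of a library per 250 bp, against the distance from the upstream boundary in kb. Thin lines are libraries, thick lines the means of 3, and the shaded span is the repeat core; deletional junctions of deleted cells are lower beyond the core, and inversional junctions of deleted cells are higher before it.

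The shift was seen in deletional junctions, the productive kind. Among them, the upstream flank held 39.0%, 40.0% and 42.4% of flank junctions in WT and 61.6%, 61.5% and 63.4% in deleted libraries. Pooled, these were 600 of 1483 and 456 of 736 junctions (Fisher's exact test, p = 1.58e-21). Inversional junctions lay mostly upstream in both genotypes, with 86.2% ± 4.17 in WT and 91.3% ± 2.54 in deleted libraries (SD, n = 3). That difference of 5.12 percentage points did not overlap between libraries, and the pooled counts were 249 of 289 and 243 of 266.

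Preys in the flanks had a median length of 113, 113 and 109 bases in WT and of 104, 111 and 87 bases in deleted libraries. Of the Sγ1 preys, 65.8%, 66.0% and 66.1% reached 100 bases in WT and 63.0%, 63.2% and 43.5% in deleted libraries, without overlap. Deleted replicate 3 stood apart from all others by its short preys. Without it the difference in the upstream share of flank junctions was 21.5 percentage points, and with preys of at least 100 bases it was 18.6. Replicates 1 of both genotypes came from a single sequencing run, as did replicates 2, and within these runs the difference was 22.6 percentage points. Between 3 and 33 Sγ1 junctions, identical in prey position, strand and bait end, were shared by any pair of libraries. The 33 were shared by WT replicates 2 and 3, where they made up 2.74% and 3.09% of distinct junctions, and without junctions present in more than 1 library the difference was 22.4 percentage points.

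Orientation differed along Sγ1 in every library. Inversional junctions made up 27.4% to 36.6% of the upstream flank, 8.24% to 14.3% of the core and 3.53% to 10.6% of the downstream flank. The upstream flank exceeded the core by 20.5 percentage points on average, in 6 of 6 libraries, and the core exceeded the downstream flank by 5.59, also in 6 of 6 (exact sign-flip tests over libraries, p = 0.03125 each, the smallest they can give, and adjusted p = 0.0938 over 27 comparisons). With preys of at least 100 bases, the step from core to downstream flank was 2.55 percentage points and no longer had 1 sign. Inversional junctions had their median at 7.46 to 7.84 kb in all libraries. Deletional junctions had it at 10.0 to 12.8 kb, inside the core, where positions are not resolved.

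The inversional share of Sγ1 was 12.9%, 12.03% and 13.8% in WT and 19.6%, 20.95% and 21.8% in deleted libraries. Since the upstream flank is rich in inversional junctions and held a larger share of the Sγ1 junctions in deleted cells, the share was also computed with the 3 parts weighted alike in all libraries. It was then 14.0% ± 0.721 in WT and 18.8% ± 1.18 in deleted libraries (SD, n = 3), a difference of 4.78 percentage points against 7.85 unweighted, and the genotypes still did not overlap (exact permutation test, p = 0.1 for both). Within the parts, the core had 8.54%, 8.24% and 11.02% in WT and 13.9%, 14.1% and 14.3% in deleted libraries. The upstream flank had 31.4%, 27.4% and 29.2% against 33.8%, 34.6% and 36.6%. Neither overlapped, while the downstream flank, with 40 inversional junctions in WT and 23 in deleted libraries, did (4.29% ± 1.01 and 7.89% ± 2.92). In 1-kb bins, the inversional shares of 1 of 14 (7.14%) did not overlap, at 6 to 7 kb, where 122 of 359 junctions were inversional in WT and 114 of 279 in deleted libraries.

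**Figure D3:**
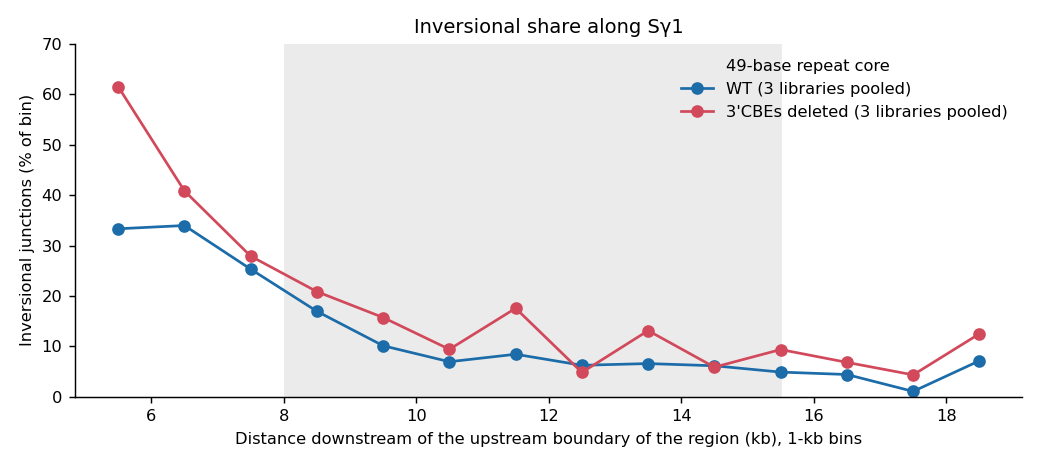
Inversional junctions in percent of all junctions of a 1-kb bin, 3 libraries pooled per genotype, against the distance from the upstream boundary in kb. The share falls from the upstream flank into the shaded repeat core in both genotypes, from 34.0% (WT) and 40.9% (deleted) at 6 to 7 kb to 6.96% and 9.42% at 10 to 11 kb.

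Within libraries, Sγ1 had 8.14 percentage points more inversional junctions than Sε and 8.003 fewer than Sμ, each in 6 of 6 libraries (exact sign-flip tests, p = 0.03125, adjusted p = 0.0938). The excess over Sε was 7.26 ± 1.29 in WT and 9.03 ± 1.33 in deleted libraries (SD, n = 3), which overlapped (exact permutation test, p = 0.3). Sγ1 minus Sμ was -6.14, -6.79 and -6.66 in WT and -8.76, -9.99 and -9.68 in deleted libraries, without overlap. The inversional shares of Sε and Sμ were thus also higher in every deleted library than in any WT library. That of Sμ rose by more percentage points than that of Sγ1. The higher inversional share in deleted cells was therefore not particular to Sγ1, and its cause was not tested.

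Prey positions were spread widely, since the 10 most used positions took 2.15% ± 0.631 of Sγ1 junctions in WT and 1.42% ± 0.382 in deleted libraries (SD, n = 3), which overlapped. All 10 were deletional and lay in the core, and 9 of them lay within 67 bases, chr12:114571129-114571195. This short span held 66, 66 and 61 junctions in WT and 26, 28 and 29 in deleted libraries. That was 5.93%, 5.44% and 5.63% of Sγ1 junctions in WT and 3.85%, 3.599% and 6.53% in deleted libraries, with deleted replicate 3 above all WT libraries and the other deleted libraries below them. Of its 276 junctions, 269 were deletional, and they came with 106 different bait ends. Their first 100 prey bases occurred once in the recovered sequence for 275 of 276, unlike most core junctions. The sequence from chr12:114571099-114571225 is shown on the minus strand, with AGCT in capitals.
Cluster of prey positions: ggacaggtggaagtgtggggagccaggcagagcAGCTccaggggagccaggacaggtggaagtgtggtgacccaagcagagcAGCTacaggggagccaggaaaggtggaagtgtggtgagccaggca
The most used position, 114571140, is the T of the second AGCT shown and had 15 junctions in 6 of 6 libraries, 10 in WT and 5 in deleted cells, with 14 bait ends.

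The most used positions outside the core are shown with 20 bases on either side on the minus strand, the first prey base in capitals. They are the 2 most used inversional positions, both in the upstream flank, and the most used deletional position of each flank.
Inversional, 114578492: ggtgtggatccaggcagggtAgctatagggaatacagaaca
Inversional, 114578794: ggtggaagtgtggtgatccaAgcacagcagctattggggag
Deletional, upstream flank, 114578478: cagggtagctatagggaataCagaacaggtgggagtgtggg
Deletional, downstream flank, 114569280: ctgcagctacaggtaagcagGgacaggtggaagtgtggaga
They held 7, 4, 6 and 6 junctions in the order shown, and each was found in both genotypes. The first of them lies in an AGCT, 14 bases from the deletional position of the upstream flank.

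AGCT was then counted along the whole region. Junctions whose first prey base lay in an AGCT made up 13.6%, 13.2% and 12.7% of Sγ1 junctions in WT and 12.6%, 15.04% and 10.8% in deleted libraries, which overlapped (exact permutation test, p = 0.7). The motif covered 5.74% of the recovered bases, and 7.77% of the core. Of the 575 deletional junctions at the motif, 298 began at its T. Of the 124 inversional ones, read on the other strand, 66 began at the T of the motif.

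By part, 2 of 3 shares (66.7%) did not overlap between the genotypes. In the downstream flank, 15.9%, 12.7% and 14.5% of WT junctions lay at an AGCT and 8.65%, 9.02% and 4.55% of those in deleted libraries, where the counts were 9 of 104, 12 of 133 and 3 of 66. The motif covered 4.33% of the recovered bases there. In the core the order was opposite, with 13.6% ± 0.491 in WT and 15.9% ± 1.71 in deleted libraries (SD, n = 3), and with deletional junctions alone the core values overlapped. Without deleted replicate 2 the core difference was 1.35 percentage points against 2.33. In the upstream flank the shares were 11.1% ± 0.804 and 11.1% ± 3.19. These splits by part were made after the values were seen, and the exact permutation test gave 0.1 for both parts without overlap.

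**Figure D4:**
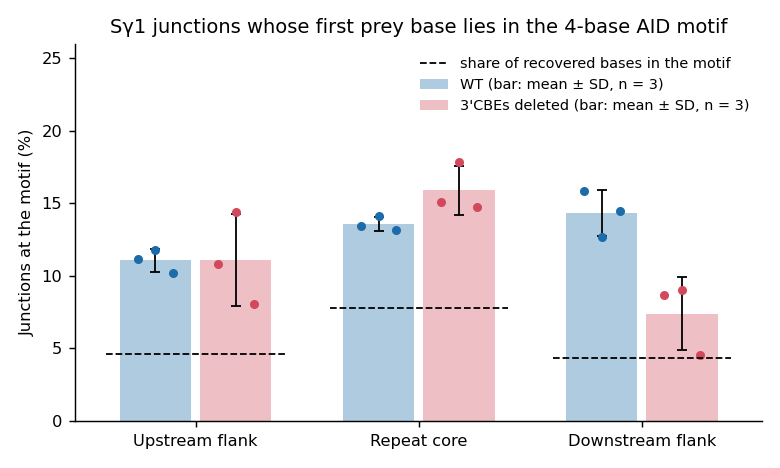
Junctions whose first prey base lies in an AGCT, in percent of the junctions of each part of Sγ1. Points are libraries, bars means and lines the SD (n = 3), and dashed lines mark the share of recovered bases in the motif, which all bars exceed; the genotypes stand apart in the downstream flank (14.3% in WT, 7.41% in deleted).

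The structure of the joints differed little between the genotypes over Sγ1 as a whole. A read per class is shown in the direction of sequencing, from bait to prey, for deletional junctions at 114571140 and inversional junctions at 114578492. Capitals mark the last bait and first prey base of a direct joint, the shared bases of a microhomology, or the inserted bases.
Deletional, direct: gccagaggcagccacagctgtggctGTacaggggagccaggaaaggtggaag
Deletional, microhomology: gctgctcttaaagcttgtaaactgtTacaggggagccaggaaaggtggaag
Deletional, insertion: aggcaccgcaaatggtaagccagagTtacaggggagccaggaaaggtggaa
Inversional, direct: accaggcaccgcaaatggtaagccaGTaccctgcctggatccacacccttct
Inversional, microhomology: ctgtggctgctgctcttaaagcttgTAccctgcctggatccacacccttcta
Inversional, insertion: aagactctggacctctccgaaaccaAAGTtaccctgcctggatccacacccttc
The deletional reads have the same prey start behind different bait ends.

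Direct joints made up 21.6%, 23.4% and 25.8% of Sγ1 junctions in WT and 24.9%, 21.5% and 22.3% in deleted libraries. Joints with microhomology made up 57.3%, 55.3% and 55.1% in WT and 56.3%, 58.2% and 55.6% in deleted libraries. Insertions made up 20.5% ± 1.23 in WT and 20.4% ± 1.63 in deleted libraries (SD, n = 3). All 3 classes overlapped (exact permutation tests, p = 0.6, 0.5 and 0.9), and Fisher's exact tests on pooled junctions gave p = 0.588, 0.471 and 0.776. Of 2986 microhomologies, 36.8% were of 1 base, and the longest had 19 bases. Of 1084 insertions, 44.7% were of 1 base, and the longest had 30.

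Microhomologies were slightly longer in deleted cells. Their mean length was 2.43, 2.43 and 2.41 bases in WT and 2.45, 2.62 and 2.58 in deleted libraries, without overlap (exact permutation test, p = 0.1). Microhomologies of 4 or more bases made up 10.4%, 9.64% and 9.502% of junctions in WT and 10.7%, 11.7% and 11.7% in deleted libraries. Neither held with preys of at least 100 bases, where the differences were 0.0502 bases and 0.793 percentage points and the libraries overlapped. The pooled counts were 336 of 3411 and 215 of 1897.

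**Figure D5:**
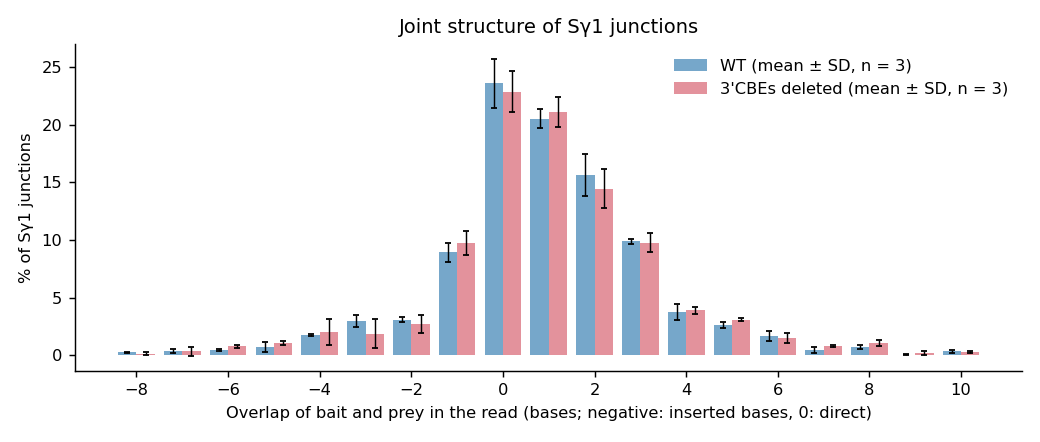
Overlap of bait and prey in the reads of Sγ1 junctions, in percent of the Sγ1 junctions of a library, from 8 inserted bases at the left through direct joints at 0 to microhomologies of 10 bases at the right. Bars are means and lines the SD of 3 libraries; the genotypes have a like distribution, with direct joints at 23.6% in WT and 22.9% in deleted libraries.

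A difference in joints was present in the downstream flank. Direct joints made up 20.7%, 32.3% and 31.8% of junctions there in WT and 18.3%, 19.5% and 12.1% in deleted libraries. WT replicate 1 lay closer to the deleted libraries than to the other WT libraries. Joints with microhomology made up 59.9%, 48.0% and 49.5% in WT and 66.3%, 63.9% and 66.7% in deleted libraries. Both were without overlap (exact permutation tests, p = 0.1), as were 4 of 12 such comparisons of joint class and part (33.3%). Pooled, 261 of 923 joints in WT and 53 of 303 in deleted libraries were direct, and 484 and 198 had microhomology. With preys of at least 100 bases the direct shares overlapped and the microhomology shares did not. The other comparisons without overlap were microhomology in the core, at 57.1% ± 0.816 in WT and 53.8% ± 1.30 in deleted libraries, and insertions in the upstream flank, at 19.9% ± 1.12 and 17.7% ± 0.311 (SD, n = 3). The split by part was made after the values were seen.

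Orientation and joint class were compared within libraries, and no difference passed the test. Inversional joints had 2.22 percentage points fewer microhomologies than deletional ones on average, with the difference below 0 in 4 of 6 libraries (exact sign-flip test, p = 0.28125). They had 2.38 percentage points more insertions, higher in 5 of 6 libraries (exact sign-flip test, p = 0.09375), and 1.83 percentage points fewer microhomologies of 4 or more bases, lower in 5 of 6 (exact sign-flip test, p = 0.15625). The bait ends were also alike, with a median of 64, 65 and 64 bait bases before the joint in WT and 65, 66 and 62 in deleted libraries. Within libraries, Sγ1 had 3.02 percentage points fewer direct joints than Sε, in 6 of 6 libraries, and its microhomologies were longer, at 2.49 bases against 2.24 in Sε and 2.30 in Sμ, also in 6 of 6 (exact sign-flip tests, p = 0.03125, adjusted p = 0.0938). In deleted replicate 1 the length exceeded that of Sμ by only 0.0077 bases. With 1 junction per prey position and strand, the direct share against Sε and the length against Sμ no longer had 1 sign.

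In the mm9 genome the IgG1 gene, Ighg1, lies on the minus strand at chr12:114567187-114568734 with 4 exons. The first 25 prey bases matched mm9 once in the IgH window for 676 of 1226 junctions of the downstream flank. Of these matches, 652 lay upstream of the first exon of Ighg1. In Ighg1 or beyond it lay 0, 4 and 2 matched junctions in WT and 1, 15 and 2 in deleted libraries, with 15 of 24 in deleted replicate 2, and the shares of Sγ1 junctions overlapped (exact permutation test, p = 0.3). The other junctions of the downstream flank were not placed in mm9.

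Under LPS/αIgD-dextran, a stimulation directed at other S regions, Sγ1 received 108 junctions in 6 libraries, 94 in WT and 14 in deleted cells. In WT, 41 of the 51 flank junctions lay upstream, or 80.4% (Wilson 95% confidence interval 67.5 to 89.0, counting error only), and the libraries gave 83.3%, 63.2% and 92.3%. Each was above the highest WT library under αCD40/IL4, 50.1%, on 6, 19 and 26 flank junctions. The 2 stimulations are unlike in completeness. The WT lists under LPS/αIgD-dextran hold all IgH junctions that the study counted (3933, 4940 and 6097), while those under αCD40/IL4 lack most Sγ1 junctions. Whether this affects the difference was not tested. In deleted cells 7 of 11 lay upstream, too few to compare.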

How the data were processed

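Each deposited list holds 1 row per junction, with coordinates, orientation and positions within the read. The authors aligned the reads with Bowtie2 to the AJ851868/mm9 hybrid genome, called junctions with their HTGTS pipeline and removed duplicates. No values were normalized, and all counts and percentages were made here. Depth was 1267 to 3830 junctions per library in the IgH window, and a floor of 3 junctions was 0.247% to 0.676% of the Sγ1 junctions of a library. A junction was inversional where bait and prey strands differed, and joint structure was the last bait base minus the first prey base plus 1. Two-sided exact permutation tests compared 3 libraries with 3, and a difference was called where the libraries did not overlap. Single values called were 14 of 26 (53.8%). For each of these 14, the adjusted p-value of the exact permutation test was 0.186 over the 26 values. Several describe the same shift, such as the flank shares and the median position, and are not independent. Adjusted p-values are Benjamini-Hochberg. The members and lists were chosen with earlier results of these data known, and the 3 parts of Sγ1 after the positions were seen. Named bins were the 3 with the most junctions and those without overlap, and named positions the 10 most used, with flank positions added after their values were seen. Scripts ran in Python 3.11.15 (scipy 1.17.1, pandas 2.3.3, numpy 2.4.6) and figures were drawn with matplotlib 3.10.9. Alternatives covered omission of each library, the replicate block, the sequencing run, the boundaries, repeated positions, prey length, orientation, bins and thresholds. GENCODE M1 gave the Ighg1 exons in mm9.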

Additional observations from a re-analysis of the deposited data

How the results depend on the processing

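Of the 14 single values whose libraries did not overlap, all kept their direction under the alternatives run. Neither leaving out libraries nor the replicate block can change such a call, so these settings do not test it. Under every alternative, 12 remained without overlap. The exceptions were microhomologies of 4 or more bases, whose difference of 1.504 percentage points was 1.47 with 1 junction per prey position and strand and 0.793 with preys of at least 100 bases, and mean microhomology length, 0.0502 bases with such preys. Of the 14 bins of 1 kb, 9 did not overlap, against 11 of 25 bins of 0.5 kb and 5 of 8 bins of 2 kb. The count was 9 to 10 when a library was left out, a setting that cannot lower it. It was 5 of 14 bins with preys of at least 100 bases. With such preys the difference at 5 to 6 kb turned from 0.499 to -0.0625 percentage points. Within libraries, 1 junction per position and strand left a microhomology length of 0.154 bases over Sμ and a direct share of -3.60 percentage points against Sε without a single sign, as preys of at least 100 bases did for core against downstream flank (2.55).

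Values that overlapped came apart under some settings. The share of the 10 most used positions, -0.732 in the main comparison, was apart under the replicate block (-0.732), with replicates 1 and 2 only (-1.08), with preys of at least 100 bases (-1.22), with 20 positions (-1.10), and in some cases with a library left out (-0.942 to -0.370). Others that came apart with a library left out were the microhomology share (0.0741 to 1.54), its difference by orientation (-7.15 to -2.07), the AGCT share (-1.46 to 0.657), and the Sγ1 minus Sε differences in inversional share (1.03 to 2.52) and direct share (-2.03 to 0.0480). The insertion share came apart with replicates 1 and 2 only (-1.66), the inversional difference from Sε with 1 junction per position (2.05), and the microhomology difference from Sε with preys of at least 100 bases (6.75). The cause was not tested. Deviations of same-numbered libraries correlated at -0.283, -0.200 and 0.181 over 26 values, so the numbers were not taken as pairs. The replicate block keeps each difference of means by construction (21.98 for the upstream share of flank junctions, smallest possible p 0.25). It changed no call other than that of the 10 most used positions. Depth limits the downstream flank of deleted libraries, with 66 to 133 junctions each, and positions within the core are not resolved.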
